A study of Mus musculus with 2 samples.

Results

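Krt5, Krt14 and Krt15 encode the keratins by which the basal layer of the epidermis is usually recognised. They were taken as the 3 rows, of 27998 genes in the deposited matrices, that carry these symbols, each of which occurred in exactly 1 row in both libraries. Keratin filaments are built from pairs of a type I and a type II keratin. Krt5, a type II keratin, and Krt14, a type I keratin, form the pair of basal keratinocytes (KCs), anchor to hemidesmosomes and desmosomes, and are replaced by Krt1 and Krt10 as cells leave the basal layer. Krt15 is a further type I keratin of the basal layer and is known as a marker of hair follicle stem cells, where it can pair with Krt5.

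The cells came from the epidermis of 2 male C57BL/6J mice at postnatal day 0 that lacked Chrm3 (knockout, KO), which encodes an acetylcholine receptor of the muscarinic type (M3). Each mouse gave 1 library of single-cell RNA sequencing. The epidermis had been split from the dermis overnight and dead cells had been removed. The study compared such mice with wild-type mice to ask what the receptor does in epidermal differentiation. The methods give the source of the mouse line but no promoter or cell type for the knockout, which the genotype marks as present on both alleles. Libraries of wild-type mice were not analysed here. Every value is thus a level in KO epidermis, and each comparison is between cell classes of the same mice.

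The 2 libraries held 10816 and 15867 cell barcodes with 109756784 and 166441732 unique molecular identifiers (UMIs, 1 per captured transcript), and 7607 and 11881 barcodes passed the filter on gene number and mitochondrial share. The libraries shared 127 barcode sequences, 34 of which passed the filter in both. Chrm3 itself gave 15 UMIs in mouse 1 and 23 in mouse 2 over all barcodes, which checks nothing about the deletion because a count from the 3′ end does not show whether the deleted part was transcribed. Cells were clustered without any keratin gene and named from marker genes without any keratin, and a name such as basal 1-like means that markers of that state led the cluster. Classes of interfollicular epidermis (IFE) and of the hair follicle, and 6 classes of other cells, gave 18 named classes in all. The marker lists came in part from the study's own tables, which hold these cells.

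The genes lie in 2 keratin clusters of the mouse genome (GRCm38, GENCODE M21). Krt5 lies at chr15:101707070-101712898 with 9 exons and a coding length of 1743 bases. Krt14 lies at chr11:100203162-100207548 and Krt15 at chr11:100131758-100135928, each with 8 exons, with coding lengths of 1455 and 1371 bases. All 3 genes are on the minus strand. Krt14 and Krt15 are 67233 bases apart, with the 2 protein-coding genes Krt19 and Krt9 between them. Their coding sequences were identical at 1021 of 1351 aligned bases, or 75.6%. The following 30 coding bases encode the end of the rod domain, the stretch most alike among keratins, and are shown because they tell the 3 genes apart even there. Capitals mark bases that differ from Krt14, and the sequences are GENCODE transcripts read 5′ to 3′ along the gene.
Krt14 (exon 6, chr11:100204113-100204142): acctaccgccgtctgctggagggagaggac
Krt15 (exon 6, chr11:100132996-100133025): acTtaccgGAACctgctCgagggCCaggaT
Krt5 (exon 7, chr15:101708881-101708910): acctacAgGAAGctgctggagggCgaggaG
Krt15 differed from Krt14 at 9 of these bases and Krt5 at 7. Because the libraries read the 3′ end of transcripts, the last 500 bases matter more for counting. There, no stretch of 50 bases of Krt5 or Krt15 occurred in a transcript of another gene, whereas 43 of the 451 stretches of Krt14 (9.53%) also occurred in Krt16 or Krt17. Reads from these stretches cannot be assigned to 1 gene.

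All 3 keratins were among the most abundant transcripts. Over all kept cells, Krt14 ranked 17th of 27998 genes in mouse 1 and 12th in mouse 2, at 5681 and 6512 CPM, the gene's UMIs scaled to 1000000 UMIs in all. Krt5 stood at 2959 and 3340 CPM and Krt15 at 2655 and 2257 CPM. A 3′ library counts transcript ends, so CPM was not divided by gene length, and a ratio of 2 genes in 1 class may still hold a difference in capture.

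The 4 basal IFE classes held 20.03% of the kept cells of mouse 1 and 23.7% of those of mouse 2, and 18.0% and 21.0% of all UMIs. They held 43.0% and 45.3% of the UMIs of Krt14, 44.3% and 44.8% of those of Krt5, but 36.3% and 36.8% of those of Krt15. All 3 genes were thus concentrated in these classes, and Krt15 less so than the other two in both mice. Much of each gene therefore lay in transition, follicle and unnamed classes.

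Among the 18 named classes, all 3 keratins had their highest level in basal 1-like KCs, the resting basal class led by H19 and Sparc. There, Krt14 stood at 18418 CPM in mouse 1 and 19840 CPM in mouse 2, which is 19129 ± 1006 (SD, n = 2). Krt5 stood at 8892 and 9206 CPM (9049 ± 222). Krt15 stood at 7648 and 5744 CPM (6696 ± 1347). Together the 3 genes made up 3.50% and 3.48% of all UMIs of that class. The spread between mice was thus small for Krt5 and widest for Krt15, which was lower in mouse 2. The counting error was far smaller than that spread, with an exact 95% Poisson interval of 18294 to 18542 CPM for Krt14 in mouse 1. Basal 1-like KCs were also the highest named class for each of the 3 genes in all 7 other ways of forming the classes or correcting the levels. Krt15 was higher in an unnamed IFE cluster of 72 cells led by Gadd45g and Penk, at 7473 and 7913 CPM. The 19 and 20 cells of the basal 1 cluster that took no name, because the clusterings disagreed, held 24229 and 27544 CPM of Krt14.

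**Figure D1:**
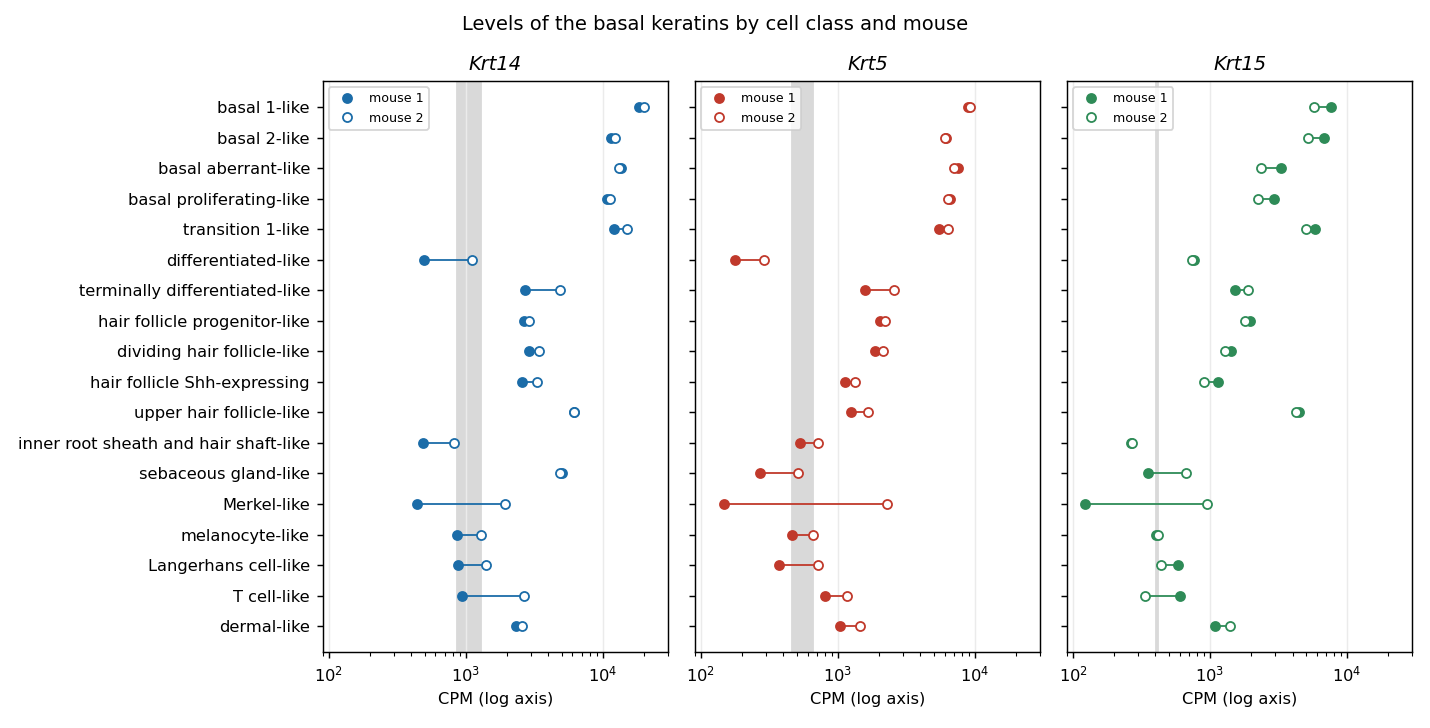
Levels of Krt14, Krt5 and Krt15 in CPM (log axis) in each named class, with 1 point per mouse. Basal 1-like KCs are highest in all 3 panels, and the grey band gives the range of the 2 mice in melanocyte-like cells, from 856 to 1288 CPM for Krt14.

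Below basal 1-like KCs the order of classes was not the same for the 3 genes. Krt14 came next in transition 1-like KCs, at 12052 and 15037 CPM. It followed in basal aberrant-like KCs (13492 and 13079 CPM), basal 2-like KCs (11507 and 12254 CPM) and basal proliferating-like KCs (10728 and 11240 CPM). The transition 1-like range enclosed that of the basal aberrant-like class, so that pair did not differ beyond the spread, whereas the other neighbours among these 5 classes did not overlap. Krt5 ran from basal aberrant-like (7473 and 7032 CPM) through basal proliferating-like (6612 and 6323 CPM) to basal 2-like KCs (6197 and 6083 CPM). Transition 1-like KCs came last of the 5 for Krt5, at 5439 and 6370 CPM, and overlapped the basal 2-like class. That place depended on the scaling. With TMM, as in the tests below, their mean of Krt5 was 6505 CPM, above basal 2-like (6306 CPM) and basal proliferating-like KCs (6273 CPM).

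Krt15 had another order. Basal 2-like KCs were second, at 6845 and 5204 CPM, followed by transition 1-like KCs at 5847 and 5025 CPM. The ranges of basal 1-like, basal 2-like and transition 1-like KCs overlapped from neighbour to neighbour. Upper hair follicle-like KCs came next, at 4442 and 4250 CPM, above the basal aberrant-like class (3313 and 2349 CPM) and the basal proliferating-like class (2941 and 2238 CPM). The upper hair follicle-like class therefore held more Krt15 than either of these basal classes, which were led by replication or division genes, in both mice and without overlap. Its markers are largely shared with transition 2, an IFE class of the study that did not form here. Over all 18 classes, the ranges of the 2 mice overlapped in 10 of the 17 neighbouring pairs for Krt14, and in 11 of 17 for both Krt5 and Krt15, so only part of each order stood above the spread.

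The counts per cell showed the same picture without the influence of a few rich cells. After every cell had been thinned to 3000 UMIs, the median basal 1-like KC held 52 UMIs of Krt14 in mouse 1 and 57 in mouse 2, 25 and 27 of Krt5, and 22 and 16 of Krt15. In basal 2-like KCs the medians were 33 and 35 for Krt14, 18 and 17 for Krt5, and 19 and 14 for Krt15. In basal aberrant-like KCs the medians were 7 and 5 for Krt15, 36 in both mice for Krt14, and 22 and 20 for Krt5. From basal 1-like to basal aberrant-like KCs the medians of Krt15 thus changed by the largest factor of the 3.

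**Figure D2:**
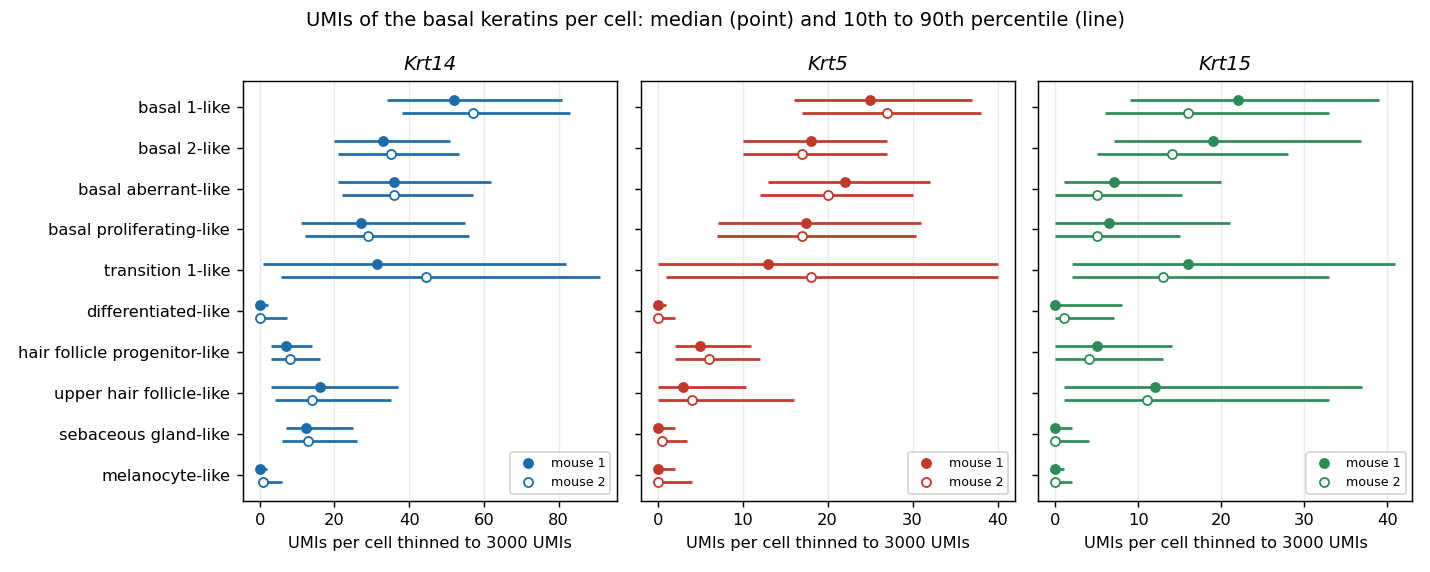
UMIs of each keratin per cell after thinning to 3000 UMIs, as medians with bars from the 10th to the 90th percentile of cells, for each class and mouse. The medians of Krt15 drop from 22 and 16 in basal 1-like KCs to 7 and 5 in basal aberrant-like KCs, whereas those of Krt14 and Krt5 drop less.

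Free RNA in the suspension gives cells UMIs of genes that they do not express, and these keratins, being abundant, are prone to it. Melanocyte-like cells, pigment cells that should lack all 3, held 856 and 1288 CPM of Krt14, 459 and 653 CPM of Krt5, and 404 and 420 CPM of Krt15. Of these cells, 14.5% were marked as likely doublets. The cleaner of their 2 clusters held 273 and 343 CPM of Krt14, against 1896 and 2955 CPM in the other. A cell was counted as above background where, at 3000 UMIs, it exceeded the 95th percentile of melanocyte-like cells of its own mouse. By this measure 100% and 99.7% of basal 1-like KCs were above background for Krt14, and 97.3% and 93.9% for Krt15. For Krt15 the share was 60.4% and 56.1% in basal aberrant-like KCs and 54.4% and 52.8% in basal proliferating-like KCs. With the background taken from melanocyte-like cells without marked doublets, an alternative chosen after seeing the data, these shares rose to 87.0% and 80.8%, and to 77.8% and 75.1%. The level of the background therefore moved the share, while both classes stayed below basal 1-like KCs (99.3% in both mice).

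Tests used the UMIs summed per mouse and class. The 24 sums of 12 KC classes entered 1 fit of edgeR's quasi-likelihood test over 12529 genes, with Benjamini-Hochberg adjustment and an adjusted p under 0.05 as the call. The 2 sums of a class come from separate animals, and the sums of 1 animal share it. The main fit held no term for the mouse, so p-values measure the spread between the 2 sums of a class, pooled over classes. Shifts of 1 mouse that all classes share are part of that spread, so it is not the spread of a paired difference. With 2 mice an exact permutation test of a single value cannot reach that threshold. The classes were formed on other genes of the same cells, so a contrast describes states that clustering had already drawn apart.

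The first question was how far each basal keratin falls on the way to the differentiated layers. In differentiated-like KCs, led by Serpinb12 and Flg, Krt14 stood at 499 and 1109 CPM, Krt5 at 178 and 288 CPM, and Krt15 at 762 and 733 CPM. Against the mean of the 4 basal classes, all 3 fell, in a comparison in which 32.2% of genes were called lower. Krt5 fell most, by 4.62 on the log2 scale (SE 0.24, adjusted p = 1.1e-12, edgeR). Krt14 changed by -3.75 (SE 0.30, adjusted p = 9.1e-10, edgeR) and Krt15 by -2.15 (SE 0.16, adjusted p = 3.5e-10, edgeR). The order of the sizes was the same in both mice, with Krt5 at -4.98 and -4.33, Krt14 at -4.37 and -3.34, and Krt15 at -2.28 and -1.98. In each mouse, Krt5 and Krt14 lay below the level of melanocyte-like cells but above that of the cleaner melanocyte-like cluster, which held 138 and 179 CPM of Krt5. Krt15 lay above both in each mouse. The part of free RNA in these remainders was not tested.

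Krt15 was also the member most often above background in single differentiated-like KCs, by thresholds that differ between genes. There, 18.3% of cells in mouse 1 and 18.1% in mouse 2 were above background for Krt15, against 4.17% and 5.07% for Krt14 and 2.50% and 1.45% for Krt5. The 90th percentile of these cells was 8 and 7 UMIs of Krt15 of 3000, while the medians of all 3 genes were 0 or 1. The thresholds for Krt14 were 7 and 14.4 UMIs of 3000, against 5 and 4 for Krt15. With the background from melanocyte-like cells without marked doublets they were 2 in both mice for Krt14 and 1 for Krt15, and the shares 10.0% and 22.5% for Krt14 against 34.2% and 40.6% for Krt15. Over the summed UMIs of the class, Krt15 had 1.53 times those of Krt14 in mouse 1 but 0.661 times in mouse 2, where Krt14 was higher.

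Most other keratins that could be tested were higher in the same contrast. Of 10 other type I keratins that could be tested, 6 were higher, 1 was lower and 3 were not called, where 30.7% of all genes were called higher. Krt10, the suprabasal partner of Krt1, changed by 6.05 and the stress keratin Krt16 by 6.23, while Krt17 had -0.08 (adjusted p = 0.787, edgeR). Of 13 other type II keratins, 10 were higher and none was lower, with Krt1 at 6.65, Krt6a at 5.55 and Krt79 at 2.94. The medians were 1.51 and 3.67 for the 2 lists, against -0.07 over all genes. Krt5 was thereby reduced from 96.8% and 93.5% of type II keratin UMIs in basal 1-like KCs to 0.544% and 0.796% in differentiated-like KCs. Krt14 went from 68.9% and 73.9% of type I UMIs to 1.29% and 2.99%.

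Genes that tie basal keratins to the basement membrane fell with them. In this contrast 32.2% of all genes were called lower and 30.7% higher. All 12 hemidesmosome and basement membrane genes were lower (median -3.46), among them Col17a1, a transmembrane collagen of hemidesmosomes, at -4.66, Itgb1 at -3.37, Dst at -2.78 and Plec, the linker of keratin to hemidesmosomes, at -0.62. Desmosome genes, whose plakins hold keratin at cell contacts, did not follow. Of 13, 10 were higher and 2 lower (median 1.81), with Jup at 2.83, Dsp at 1.81, Pkp1 at 1.81 and Dsc3 at 1.53. Dsc1 and Dsg1a, also in this list, were among the markers that named differentiated-like KCs, so their direction was partly set by the naming. Of 12 transcription factors of the basal layer, 8 were lower and 2 higher, with Trp63, a master regulator of the stratified epithelia that is known to act on Krt5 and Krt14, at -1.54, Irx4 at -2.34, Nfix at -1.93 and Klf5 at 0.83. Irx4 and Nfix had been among the markers that named basal 2-like KCs, so their direction was partly set too. Of 13 factors of differentiation, 10 were higher and 1 lower, including Barx2 at 2.92, Cebpb at 2.70 and Klf4 at 2.41.

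Transition 1-like KCs, led by Clca3a2 and Ly6d, held basal keratins at levels near those of the basal classes, together with suprabasal ones. Krt5 in mouse 1, at 5439 CPM, lay below every basal class. Against the mean of the basal classes, Krt14 had a log2 change of 0.12 (SE 0.23, adjusted p = 0.706, edgeR) and Krt5 of -0.16 (SE 0.17, adjusted p = 0.513, edgeR). Krt15 was called higher, at 0.51 (SE 0.13, adjusted p = 0.0039, edgeR), where 21.4% of genes were called higher and 21.4% lower. That call is against a mean that includes the basal aberrant-like and basal proliferating-like classes, which are low in Krt15. Set beside basal 1-like and basal 2-like KCs, the transition 1-like levels of Krt15 in plain CPM were lower than both in each mouse. The range of the 2 mice overlapped that of both classes. Scaled with TMM, as in the test, Krt15 in transition 1-like KCs was above basal 2-like KCs in mouse 2 (5585 against 5379 CPM). In mouse 1 it was below them (6376 against 6986 CPM). The per-mouse changes of Krt14 were -0.02 and 0.25, so even their sign was not shared. Among cells under 5% mitochondrial UMIs, where no differentiated class formed, Krt5 was called lower in transition 1-like KCs (-0.69, adjusted p = 0.0028, edgeR).

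Basal gene groups did not all keep pace with the keratins at this step, where 21.4% of all genes were called lower and 21.4% higher. All 12 hemidesmosome and basement membrane genes were already lower (median -1.18), with Col17a1 at -1.08 and Itgb1 at -1.32. Krt10 was higher by 3.72, Krt1 by 4.73 and Krt16 by 4.79. Of 12 transcription factors of the basal layer, 6 were higher, 5 lower and 1 not called (median 0.04). Klf5 was at 1.43, Irx4 at -0.31, Trp63 at -0.52 and Nfix at -0.59, and Irx4 and Nfix had helped to name basal 2-like KCs. Of 13 factors of differentiation, 11 were higher and none was lower. Krt5 nevertheless made up just 31.7% and 38.2% of type II keratin UMIs and Krt14 41.3% and 50.7% of type I UMIs, as other keratins made up the rest.

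Within that class, cells differed widely. The 10th and 90th percentiles of Krt14 were 1 and 82 UMIs of 3000 in mouse 1 and 5.7 and 91 in mouse 2. Krt14 and Krt10 were both above background in 163 of 364 cells of mouse 1 (44.8%) and 223 of 558 of mouse 2 (40.0%), against 1.496% and 1.649% of basal 1-like KCs. Across cells, Krt14 and Krt10 had a Pearson r of -0.60 in mouse 1 (364 cells) and -0.53 in mouse 2 (558 cells) on log2 scale, while Krt14 and Krt5 had 0.66 and 0.64. Cells of 1 class share a library and its free RNA, and counts that add to a fixed total lean towards negative values, so these are descriptions. Marked doublets made up 6.16% of the class.

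Terminally differentiated-like KCs, led by the Lce1 genes of the cornified envelope, again held basal keratins. Krt14 stood at 2707 and 4841 CPM, Krt5 at 1565 and 2579 CPM and Krt15 at 1510 and 1879 CPM. Against differentiated-like KCs all 3 were called higher, where 17.6% of genes were, by 1.83 for Krt14 (adjusted p = 7.1e-05, edgeR), 2.75 for Krt5 (adjusted p = 2.2e-08) and 0.76 for Krt15 (adjusted p = 0.0023). Other basal and follicle genes were higher as well, with 11 of 12 hemidesmosome and basement membrane genes and 10 of 11 follicle stem and progenitor genes, Lhx2 at 3.43 among them. The class held 44 and 60 cells, with medians of 4596.5 and 9365 UMIs against 25014 and 24622 in differentiated-like KCs, and 13.5% of its cells were marked doublets, against 1.54%. The Lce1-led cluster also held 61 and 168 cells that took no name, because the clusterings disagreed, with 8604 and 9380 CPM of Krt14. They held 4260 and 5004 CPM of Krt5 and 3619 and 2979 CPM of Krt15, and did not enter the main test. Without marked doublets the 3 genes stayed higher, at 2.15 for Krt14, 2.88 for Krt5 and 0.78 for Krt15 (highest adjusted p = 0.0018, edgeR). The part that shallow cells or free RNA played in this rise was not tested.

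**Figure D3:**
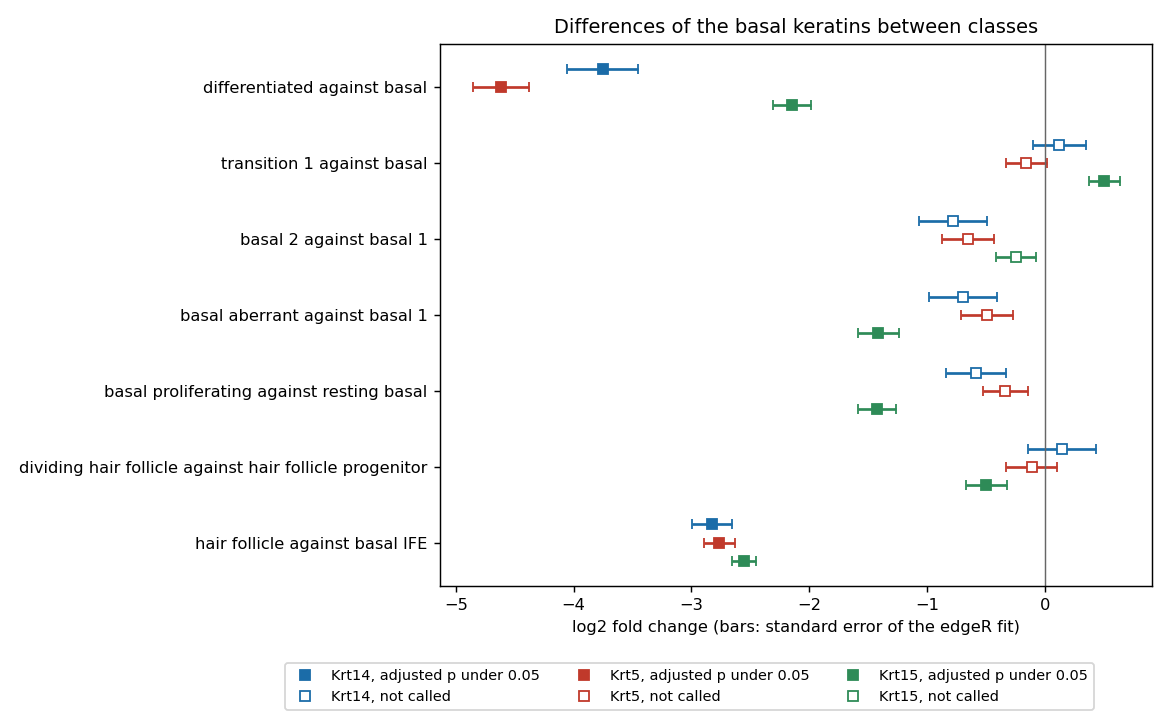
Log2 fold changes of Krt14, Krt5 and Krt15 in 7 contrasts between classes, with filled points for called and open points for not called differences, bars for the standard error of the edgeR fit and 0 as a line. Krt5 falls furthest in differentiated-like KCs (-4.62), and in basal aberrant-like and basal proliferating-like KCs the filled points are those of Krt15 (-1.41 and -1.42), while Krt14 and Krt5, which are called there with the mouse as a block, are open.

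The next comparisons asked whether the basal keratins differ between states of the basal layer itself. Krt15 was lower in basal proliferating-like KCs, which express mitosis and histone genes, than in basal 1-like and basal 2-like KCs, by 1.42 on the log2 scale (SE 0.16, adjusted p = 7.0e-07, edgeR), at -1.43 and -1.41 in the 2 mice. In that comparison 14.3% of genes were called lower and 18.3% higher. Krt14 had -0.58 (SE 0.26, adjusted p = 0.0889, edgeR) and Krt5 -0.33 (SE 0.19, adjusted p = 0.198, edgeR). In the 2 mice, Krt14 was at -0.57 and -0.59 and Krt5 at -0.30 and -0.37. With the mouse as a block, which takes out the difference between animals, both were called (adjusted p = 0.0051 and 0.029, edgeR). Marked doublets were 11.5% of the proliferating-like class and 0.745% and 0.725% of basal 1-like and basal 2-like KCs.

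Other genes of this contrast, in which 18.3% of all genes were called higher and 14.3% lower, were mixed. Krt17, a keratin of the follicle and of activated epidermis, changed by 2.33, whereas the remaining 9 other type I keratins were not called. Of 13 other type II keratins, 3 were higher and none was lower. Among them were the simple keratin Krt7 at 1.96 and Krt6a at 3.61 (SE 1.06, adjusted p = 0.012, edgeR). Follicle progenitor genes were higher in 5 and lower in 1 of 11, with Sox9 at 2.36, Lhx2 at 1.90 and Runx1 at 1.73. Hemidesmosome and basement membrane genes were lower in 8 of 12, with Col17a1 at -0.69 and Dst at -0.65, and desmosome genes in 6 of 13, with Dsc3 at -0.71 and Dsp at -0.52.

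Basal aberrant-like KCs, led by the hedgehog target Ptch1 and by replication genes such as Mcm3, were low in Krt15 too. Against basal 1-like KCs it was lower by 1.41 (SE 0.18, adjusted p = 1.4e-05, edgeR), at -1.37 and -1.46 in the 2 mice, where 5.75% of genes were called lower and 8.11% higher. Krt14 had -0.69 (SE 0.29, adjusted p = 0.128, edgeR) and Krt5 -0.49 (SE 0.22, adjusted p = 0.161, edgeR), and the block brought these to adjusted p-values of 0.0076 and 0.012. In the 2 mice, Krt14 was at -0.62 and -0.77 and Krt5 at -0.42 and -0.56. Krt17 rose by 3.13, Sox9 by 2.93 and Runx1 by 1.53. Of 11 follicle stem and progenitor genes, 4 were higher and 7 were not called. Hemidesmosome and basement membrane genes were lower in 5 of 12 and desmosome genes in 7 of 13, and none of either list was higher. The 2 contrasts share the basal 1-like sums, so their likeness is not independent.

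Basal 2-like KCs, led by Lef1 and Kremen2, had lower values of all 3 keratins than basal 1-like KCs, with the smallest difference in Krt15. Krt14 had a log2 change of -0.78 (SE 0.29, adjusted p = 0.0977, edgeR), Krt5 of -0.65 (SE 0.22, adjusted p = 0.0653, edgeR) and Krt15 of just -0.24 (SE 0.17, adjusted p = 0.440, edgeR). In the 2 mice, Krt14 was at -0.77 and -0.79, Krt5 at -0.61 and -0.69 and Krt15 at -0.25 and -0.23. None of the 3 was called, where 10.3% of genes were called in either direction. With the mouse as a block, Krt14 (adjusted p = 0.0034, edgeR) and Krt5 (adjusted p = 0.0012, edgeR) were called and Krt15 was not. In CPM, both Krt14 and Krt5 were lower in basal 2-like KCs in both mice without overlap, while Krt15 overlapped.

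The ratio of Krt15 to Krt14 UMIs put these differences on a scale that does not depend on total depth. It was 0.415 and 0.289 in basal 1-like KCs, 0.595 and 0.425 in basal 2-like KCs, 0.246 and 0.180 in basal aberrant-like KCs, and 0.274 and 0.199 in basal proliferating-like KCs. Within each mouse the order basal 2, basal 1, proliferating, aberrant was the same, but mouse 1 lay above mouse 2 each time. In basal 1-like and basal 2-like KCs the mice differed by about as much as these classes did. In the proliferating-like and aberrant-like classes the mice differed by more than the classes did. The ratio of Krt14 to Krt5 moved far less, from 1.62 and 1.78 in basal proliferating-like to 2.07 and 2.16 in basal 1-like KCs. Type I over type II keratin UMIs stayed between 2.28 and 2.95 over the 4 basal classes and both mice.

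**Figure D4:**
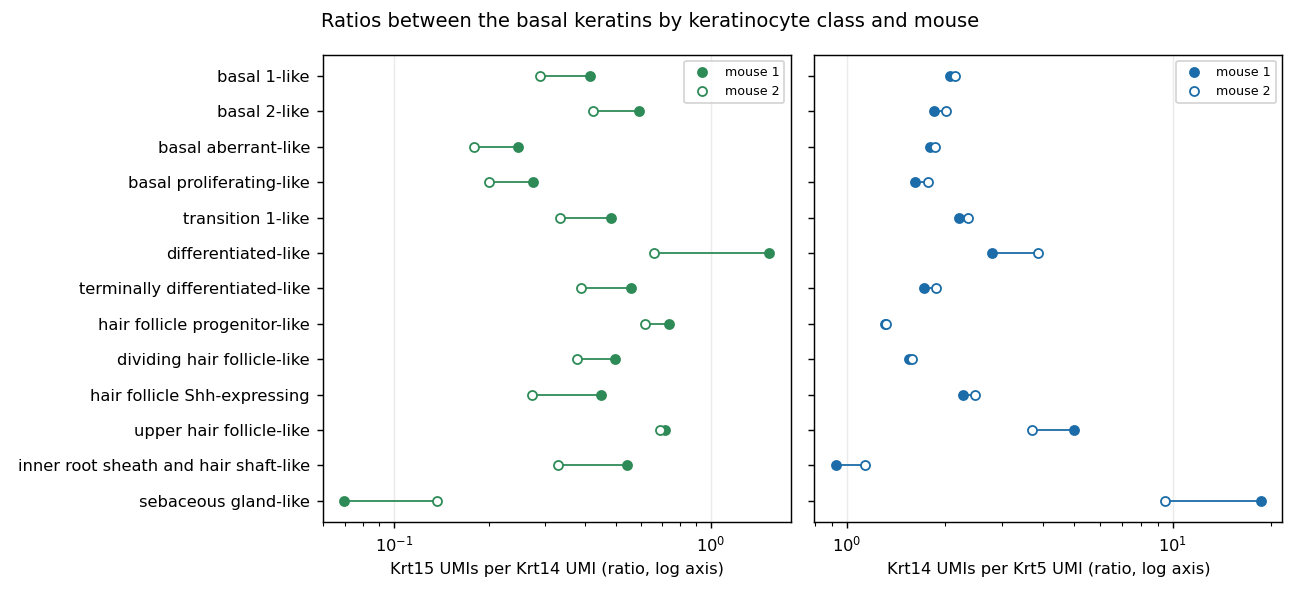
Ratio of Krt15 to Krt14 UMIs and of Krt14 to Krt5 UMIs (log axes) in 12 KC classes and sebaceous gland-like cells, with filled points for mouse 1 and open points for mouse 2. Krt15 over Krt14 is lower in mouse 2 in 12 of the 12 KC classes. In sebaceous gland-like cells it is higher in mouse 2 (0.0695 and 0.137). Krt14 over Krt5 is near 2 in the basal classes, 4.97 and 3.70 in upper hair follicle-like KCs and 18.7 and 9.46 in sebaceous gland-like cells.

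Cells of 1 class could also be read for how the keratins vary together. Across basal 1-like KCs, Krt14 and Krt5 had a Pearson r of 0.54 in mouse 1 (401 cells) and 0.44 in mouse 2 (667 cells), on log2 UMIs at 3000 per cell. Krt14 and Krt15, both type I, had -0.32 and -0.23 in the same cells. In basal proliferating-like KCs Krt14 and Krt5 had 0.75 and 0.71, and Krt14 and Krt15 0.24 and 0.25 (252 and 477 cells). In basal 2-like KCs, the larger resting class, Krt14 and Krt15 had -0.12 and 0.02 (572 and 1029 cells), so the negative sign of basal 1-like KCs was not shared by both resting classes in both mice. In upper hair follicle-like KCs even Krt14 and Krt5 had -0.07 and 0.04 (307 and 295 cells). At 1500 UMIs per cell, 78 of 88 such values kept their sign, 55 moved by more than the spread between the mice, and the largest shift was 0.225.

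As a mean over its non-dividing classes, the hair follicle held less of all 3 keratins than basal 1-like and basal 2-like KCs. In hair follicle progenitor-like KCs, Krt14 stood at 2659 and 2899 CPM, Krt5 at 2036 and 2196 CPM and Krt15 at 1955 and 1797 CPM. That mean lay lower by 2.83 for Krt14 (SE 0.17, adjusted p = 2.1e-11, edgeR), by 2.76 for Krt5 (SE 0.13, adjusted p = 3.9e-13) and by 2.55 for Krt15 (SE 0.10, adjusted p = 3.9e-14), where 27.9% of genes were called lower and 31.4% higher. The 3 values lay closer to each other than they did in differentiated-like KCs. Among other keratins, 5 of 10 type I and 6 of 13 type II were higher, including Krt17 at 2.57, Krt28 at 3.08 and Krt79 at 3.00. All 12 hemidesmosome and basement membrane genes were lower, and 9 of 11 follicle genes were higher, several of which had named the classes.

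The follicle classes differed more from each other than this mean shows. Upper hair follicle-like KCs, led by Gsdma and Klk7, held 6185 and 6144 CPM of Krt14 and 4442 and 4250 CPM of Krt15, but just 1244 and 1662 CPM of Krt5. Krt5 was 8.04% and 14.1% of their type II UMIs, against 79.1% and 71.2% in progenitor-like KCs. Marked doublets were 22.5% of this class, and clustering without marked doublets gave 6596 and 6742 CPM of Krt14, 4629 and 4707 CPM of Krt15 and 979 and 1347 CPM of Krt5. Because most markers of the class are also markers of the study's IFE class transition 2, its name does not settle whether these cells are of follicle or IFE. The follicle mean above includes them. Shh-expressing follicle KCs held 2565 and 3333 CPM of Krt14, 1125 and 1342 CPM of Krt5 and 1151 and 908 CPM of Krt15. KCs of the inner root sheath and hair shaft class were at 487 and 817 CPM of Krt14, 526 and 716 CPM of Krt5 and 265 and 269 CPM of Krt15, at or below the melanocyte-like range apart from Krt5.

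Krt15 was not spread evenly over progenitor-like KCs. In the cluster led by Ncam1, Bdnf and Nfatc1, a factor of follicle stem cells, it stood at 2907 and 2634 CPM, against 2907 and 3004 CPM of Krt14. In the cluster led by Sfrp1 and Tbx1 it stood at 2043 and 1866 CPM, with Krt14 at 2955 and 3161 CPM. In the cluster led by Prss35, Lhx2 and Lgr5 it stood at 668 and 614 CPM, with Krt14 at 1836 and 2244 CPM. The 3 clusters did not overlap for Krt15 in either mouse, whereas the first pair overlapped for Krt14. Over the whole class, 45.0% and 49.3% of cells were above background for Krt15, against 47.9% and 12.02% for Krt14, with its thresholds of 7 and 14.4 UMIs. With the background from melanocyte-like cells without marked doublets, the shares were 77.7% and 75.4% for Krt15 and 90.5% and 91.8% for Krt14, so the order of the genes depended on the threshold.

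Division was then compared in the follicle, in a contrast added after these values had been seen. In dividing follicle KCs, Krt14 stood at 2874 and 3408 CPM, Krt5 at 1853 and 2145 CPM and Krt15 at 1427 and 1288 CPM. The clusters pooled in this class differed in Krt15. It stood at 981 and 890 CPM in the cluster led by Hist1h1b, and at 466 and 368 CPM in a cluster of 71 cells. In the cluster led by Cenpf and Ube2c it stood at 2192 and 1889 CPM, above progenitor-like KCs in both mice. Over the whole class, Krt15 was lower than in progenitor-like KCs by 0.49 (SE 0.17, adjusted p = 0.0466, edgeR). Krt14 had 0.15 (adjusted p = 0.766) and Krt5 -0.11 (adjusted p = 0.776), where 22.3% of genes were called in either direction. The call of Krt15 was lost without marked doublets (-0.38, adjusted p = 0.108, edgeR), which were 11.6% of the dividing class, with library size alone (adjusted p = 0.0575, edgeR) and in DESeq2 (adjusted p = 0.0541). The log2 change turned to 0.40 under 5% mitochondrial UMIs (adjusted p = 0.187, edgeR) and to 0.0052, close to no change, at resolution 1.2, which gives finer clusters. The difference of the Krt15 change between follicle and basal layer was 0.93 (SE 0.23, adjusted p = 0.0105, edgeR), at 0.95 and 0.91 in the 2 mice, where 11.9% of genes were called. With keratins among the variable genes it was 0.54 and not called (adjusted p = 0.0927, edgeR). For Krt14 that difference was 0.73 (adjusted p = 0.268; 0.0344 with the mouse as a block, edgeR) and for Krt5 0.22 (adjusted p = 0.728).

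Sebaceous gland-like cells, led by Scd1 and Cidea, kept Krt14 almost alone. Krt14 stood at 5064 and 4850 CPM, against 271 and 513 CPM of Krt5 and 352 and 663 CPM of Krt15. Krt14 exceeded Krt5 there 18.7-fold and 9.46-fold and made up 82.2% and 74.4% of type I keratin UMIs. At 3000 UMIs the median cell held 12.5 and 13 UMIs of Krt14 but 0 and 0.5 of Krt5 and 0 of Krt15. Krt5 and Krt15 were therefore near the level of melanocyte-like cells, and Krt14 was above it in both mice. Langerhans cell-like, T cell-like, Merkel-like and dermal-like cells held 443 to 2669 CPM of Krt14, with the mice at 443 and 1940 CPM in the 36 Merkel-like cells, and their levels are not read as expression.

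Genes with a pattern like each keratin over the 12 KC classes were named by the lower of the r values of the 2 mice on log2(CPM + 10), among 4450 genes. For Krt5 these were Col17a1 (0.95), Krt14 (0.94), Ehd2 (0.94), the hemidesmosome integrin Itga6 (0.94) and Usp24 (0.92). For Krt14 they were Krt5 (0.94), Net1 (0.93), Tnk1 (0.92), the kinectin gene Ktn1 (0.92) and Krt15 (0.91). For Krt15 they were Ktn1 (0.93), 2510002D24Rik (0.92), Krt14 (0.91), Anxa4 (0.90) and Nbl1 (0.89). Krt15 and Krt5 had 0.78 with each other. The points are 12 classes of the same 2 libraries, so these values describe the classes and no p is given.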

How the data were processed

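Single-cell RNA sequencing of the epidermis of 2 Chrm3 KO mice was used, with 1 library per mouse. Per the labels, reads were processed with Cell Ranger 3.0.2 against mm10. The labels name the 3′ v1 kit and the methods version 3.1. The authors deposited UMI counts per gene and cell barcode, as whole numbers without normalization. Barcodes outside the limits on gene number and mitochondrial share were still among them.

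The filter asked for 900 to 7700 genes and a mitochondrial share under 10%, which 19488 of 26683 barcodes passed, with medians of 10480 and 10577 UMIs. Seurat 5.3.0 (R 4.3.3) normalized, integrated and clustered them (2000 variable genes, 30 dimensions, resolution 0.8), first all cells and then IFE cells alone. A cluster was named by the marker list with the most genes among its 10 leading genes. IFE classes also needed a mean log2 enrichment of 0.75 where few markers led, and the same broad name in both clusterings, so 2496 IFE cells and 669 others stayed unnamed. Scrublet (scanpy 1.11.5) scored doublets. Its automatic calls of 2 and 416 cells were replaced by the highest scores at 0.8% per 1000 cells, which marked 463 and 1129. Marked cells were kept in the main analysis.

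CPM is a gene's UMIs scaled to 1000000 UMIs of its class. The UMI counts were summed per mouse and class of at least 20 cells, and tested in edgeR 4.0.16 (TMM, filterByExpr, quasi-likelihood F-test, Benjamini-Hochberg over all genes) with 12 residual degrees of freedom. Standard errors follow from each log2 change and its F value. In simulated data with 200 genes changed by 1 on the log2 scale, 67.5% were recovered for basal 2 against basal 1, 78.5% for differentiated against basal and 91.5% for follicle against basal IFE. Sums of 1 mouse come from the same animal, so the mouse pairs them. The difference between mice correlated between classes with a median r of 0.14 over 66 pairs of classes (-0.01 to 0.41). Intervals are 95% and cover counting error only.

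The alternatives were DESeq2 1.42.0, its size factors, library size alone, no filter on low counts, the mouse as a block, resolution 1.2, keratins among the variable genes, no marked doublets, under 5% mitochondrial UMIs, 1500 UMIs per cell and leaving out a mouse. Named genes were the 3 keratins, up to 4 members per gene list with the highest mean CPM, and the 5 genes most like each keratin; a gene of the list of differentiation factors that this rule takes is not reported here. The genes, lists and tests were chosen with earlier results of these data known. Plots were made in Python 3.11.15 with matplotlib 3.10.9.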

Additional observations from a re-analysis of the deposited data

Results flagged for a closer look

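The log2 change of Krt15 with division differed between follicle and basal layer by 0.93 (follicle minus basal layer, SE 0.23, adjusted p = 0.0105, edgeR), at 0.95 in mouse 1 and 0.91 in mouse 2. It was singled out because effects under the same contrast differed between 2 compartments, and the contrast was added after the levels had been seen. With keratins among the variable genes the difference was 0.54 and was not called (adjusted p = 0.0927, edgeR). The dividing follicle class pools unlike clusters. Krt15 stood at 2192 and 1889 CPM in the cluster led by Cenpf and Ube2c, against 981 and 890 CPM in the cluster led by Hist1h1b. How far this mix set the difference was not tested.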

How the results depend on the processing

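Library size alone, in place of TMM, moved the median log2 change of all genes by -0.32 for differentiated-like against basal KCs, 0.41 for terminally differentiated-like KCs and -0.12 for transition 1-like KCs, by 0.17 and 0.13 for basal aberrant-like and basal proliferating-like KCs and by 0.18 for the follicle, whereas DESeq2 size factors moved none by more than 0.03. Against the alternatives, 332 log2 changes or counts of genes kept direction and call (counts within 1.5 times), 32 became stronger, 12 weaker and 8 turned sign, and leaving out a mouse turned no keratin value but that of Krt14 in transition 1-like KCs, which was -0.02 without mouse 2 and 0.25 without mouse 1. Of 240 shares of cells above background, 138 left the 95% interval of the main value with another background or depth, and 55 of 88 correlations moved by more than the spread between the mice at 1500 UMIs. The falls of all 3 keratins in differentiated-like and follicle KCs and of Krt15 in basal aberrant-like and basal proliferating-like KCs were called under every alternative in which their classes formed. Basal aberrant-like KCs did not form without marked doublets, and differentiated-like and Shh-expressing KCs did not form under 5% mitochondrial UMIs, so those contrasts gave no value there or used the remaining classes.

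The mouse as a replicate block called Krt14 (-0.78) and Krt5 (-0.65) lower in basal 2-like, Krt14 (-0.69) and Krt5 (-0.48) in basal aberrant-like, and Krt14 (-0.58) and Krt5 (-0.33) in basal proliferating-like KCs, and the Krt14 difference of division (0.73). It called 2309 genes for basal 2, 2608 for basal aberrant, 4642 for dividing follicle KCs and 2562 for the difference of division, against 1296, 1737, 2797 and 1485 without it, and changed no other keratin call. No filter on low counts called the same keratins, at -0.78, -0.65, -0.70, -0.49, -0.59 and -0.34, and 0.74 for the difference of division. Keratins among the variable genes gave called values of -0.83 and -0.71 (Krt14 and Krt5, basal 2), -1.09 and -0.85 (basal aberrant), and -1.24 and -0.997 (basal proliferating), turned Krt5 in transition 1-like KCs to 0.12 and Krt14 in dividing follicle KCs to -0.56, called Krt5 there (-0.53), lost the Krt15 difference of division (0.54), and called 2929 (basal aberrant) and 2620 genes (difference of division). Without agreement between the clusterings, chosen after seeing the data, Krt14 (-0.80) and Krt5 (-0.67) in basal 2-like and Krt14 in basal proliferating-like KCs (-0.60) were called, and 6803 genes for terminally differentiated-like KCs against 4341.

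At resolution 1.2, Krt5 in transition 1-like KCs was 0.050, Krt15 and Krt5 in dividing follicle KCs were 0.0052 and 0.095, and 732 genes were called for the latter contrast. The fall of Krt15 in dividing follicle KCs was not called by DESeq2 (-0.49), with library size alone (-0.47) or without marked doublets (-0.38). Under 5% mitochondrial UMIs, Krt14 in transition 1-like KCs was -0.18 and Krt5 -0.69 (called), and Krt15 and Krt5 in dividing follicle KCs were 0.40 and 0.37. The genes called then numbered 27 (basal 2), 363 (basal aberrant), 1433 (basal proliferating), 952 (dividing follicle), 406 (difference of division), 4135 (follicle against basal IFE) and 3221 (transition 1). The basal 1-like level of Krt5 moved to 8664 CPM under that limit, 8493 with the melanocyte-like level subtracted and 9898 with TMM, and that of Krt14 to 17017, 18057 and 20926. The causes were not tested.

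The limits are 2 mice, rebuilt class names, free RNA of abundant keratins and doublets. Levels at or below those of melanocyte-like cells cannot be told from free RNA at any depth, and the small terminally differentiated-like, dermal-like, T cell-like and Merkel-like classes are read with the least certainty.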

Other observations

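Some IFE cells that took no name held unusual proportions of the 3 keratins. In a cluster of 72 cells led by Gadd45g, Penk, Alox12e and Klk7, Krt15 stood at 7473 CPM in mouse 1 and 7913 CPM in mouse 2, above Krt14 (2493 and 3723 CPM) and Krt5 (245 and 511 CPM). In a cluster of 61 cells led by Pcdh20 and Tgfb2, Krt5 stood at 7214 and 6652 CPM, close to Krt14 (7227 and 7944 CPM), with Krt15 at 1297 and 909 CPM. A cluster of 669 cells led by Tagln and Foxe1, unnamed among all cells, held more Krt5 (1489 and 1680 CPM) than Krt14 (1015 and 1417 CPM) in both mice. These clusters were picked after their values had been seen.

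The 3 keratins did not differ between the mice in the same direction. On the log2 scale over the 12 KC classes, Krt14 was higher in mouse 2 by 0.35 (in 11 of 12 classes) and Krt5 by 0.26 (in 9 of 12), whereas Krt15 was lower by 0.18 (higher in 2 of 12). In the 4 basal classes the difference of Krt15 ran from -0.48 to -0.36. These are values of 2 animals.

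Barcodes removed for a mitochondrial share of 10% or more still held 3361 and 4552 CPM of Krt14, 1430 and 1664 CPM of Krt5, and 1536 and 1523 CPM of Krt15, each below the level of kept cells of the same mouse.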
